A study of Mus musculus with 8 samples.

Results

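Embryoid body cultures carrying the HNRNPK 6A mutation (6A) were compared with wild-type (WT) cultures at day 14 of differentiation, over all genes. The comparison rests on 4 of the 8 libraries of the series, 2 from 6A and 2 from WT, chosen by their labelled genotype and time. The other 4 libraries are undifferentiated cells of both genotypes at day 0, which entered the fit of the spread and are quoted only beside a day 14 result. All cells were mouse embryonic stem cells of a CAST/Ei x 129/Sv/Jae cross. The 6A cells differed by a mutation of HNRNPK, and the WT cells had none named. The labels do not say which residues 6A replaces or whether a genotype is represented by a single clone. Cells of both genotypes had grown with leukemia inhibitory factor on irradiated fibroblast feeders, which were taken away at day 0. The day 0 libraries held 508 and 702 counts of 4 Y-linked genes in 6A, against 229 and 399 in WT, while the day 14 libraries held 0 or 1. Without the factor they spent 4 days in suspension, were plated on gelatin at day 5 and were collected at day 14. One sentence of the series description puts the differentiated cells at day 7, but each sample's labels put them at day 14, and the labels were followed.

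When leukemia inhibitory factor is withdrawn, mouse embryonic stem cells leave the pluripotent state and aggregate into embryoid bodies. The outer cells form primitive and visceral endoderm, and the inner cells give rise to derivatives of ectoderm, mesoderm and endoderm, among them neurons, beating heart muscle, endothelium and primitive blood. hnRNP K, the product of Hnrnpk, binds C-rich stretches of RNA and DNA through its KH domains, takes part in transcription, splicing and translation, and recruits Polycomb repressive complex 1 to the Xist RNA. In bulk cultures of this kind, fewer cells of a type and less RNA per cell cannot be told apart.

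The libraries held 9922988 and 9882947 counts in the 6A cultures and 8146684 and 11655053 counts in the WT cultures. A floor of 3 counts corresponds to between 0.237 and 0.348 CPM, the count scaled to the TMM-adjusted library size, in a day 14 library. A total of 15458 genes were abundant enough to test. Of these, 824 were higher in 6A and 1285 were lower at an adjusted p under 0.05 in edgeR's quasi-likelihood test, which is 5.33% and 8.31% of the tested genes. The median log2 fold change over all tested genes was 0.004. Falls were larger than rises: 317 of the lower genes and 61 of the higher genes passed a log2 change of 2. Without 6A replicate 1 or 2, 1073 and 1143 genes were called in all, and without WT replicate 1 or 2, 1016 and 982, against 2109 with every library. The smallest two-sided p that groups of 2 libraries allow by exact permutation is 0.333, so the calls rest on a spread shared across genes. The labels name biological replicates without saying whether they are separate clones or cultures, so the p-values measure the spread between these libraries only.

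The genes were read through 61 lists of lineage and function genes with 1505 genes in the tables, of which 1328 were tested. The 177 others had at most 32 counts in the 4 libraries together. Where a count of calls moved by more than 1.5 times in a fit that left out 1 library, the lowest and highest counts over the 8 such fits stand in brackets or the library is named. Counts and medians of a list cover its tested members, not all its members. The 5.33% higher and 8.31% lower of all genes give the scale for these counts only. The lists and their members were chosen with earlier results of these data known. An excess over these shares therefore does not test a list. Log2 fold changes are 6A over WT and come with their SE, and every adjusted p is from edgeR's quasi-likelihood test. Of the 15458 tested genes, 8757 had no overlap between the 2 day 14 groups, so a lack of overlap alone does not set a gene apart.

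Each day 14 library held less Pou5f1 RNA than each day 0 library. Pou5f1, the core pluripotency factor Oct4, had 39.01 and 42.6 CPM in 6A and 34.2 and 36.6 CPM in WT at day 14 (adjusted p = 0.86), against 317 and 401 CPM in 6A and 199 and 546 CPM in WT at day 0. Markers of neural tissue, heart muscle, vessels, macrophages and yolk sac were all present in the WT cultures, as the values given below for each list show.

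Hnrnpk itself (mm10, chromosome 13, 58391142 to 58403343, minus strand) had 348 and 385 CPM in the 6A cultures, against 495 and 474 CPM in the WT cultures. The 6A libraries lay below the WT libraries without overlap, and the log2 fold change was -0.40 ± 0.12 (adjusted p = 0.043). The call was lost without any 1 of the 4 day 14 libraries (adjusted p = 0.11 to 0.29), without either 6A day 0 library (0.068 and 0.069), with RLE scaling (0.069), with DESeq2 (0.074) and with no filter on low counts (0.063). The mutation need not change the RNA level, so the level does not check the genotype. Among 29 tested genes of the hnRNP family, which package and process nuclear RNA, 0 were higher and 2 were lower, Hnrnpk and Hnrnph3, the second in every fit without a library. Hnrnph3 had 26.9 and 22.9 CPM in 6A, against 44.6 and 46.97 CPM in WT (log2 fold change -0.88 ± 0.16, adjusted p = 0.0025). Pcbp1, a C-rich binding protein related to hnRNP K, had 153 and 158 CPM in 6A and 164 and 137 CPM in WT (adjusted p = 0.88).

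**Figure D1:**
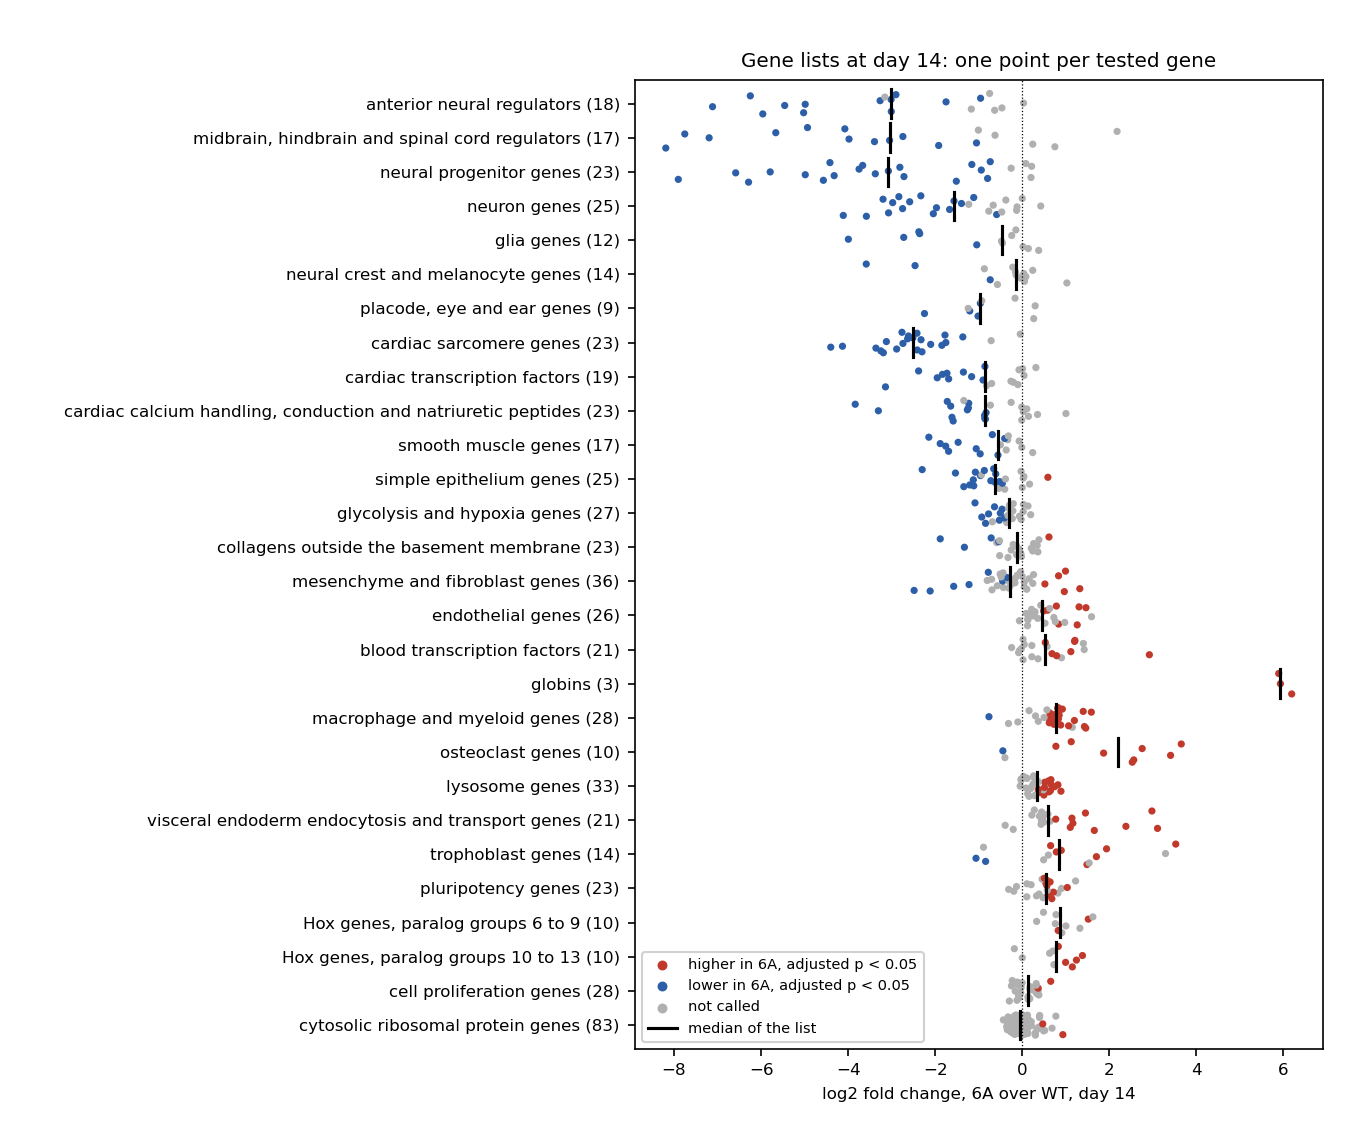
Fitted log2 fold change of 6A over WT at day 14 (x axis) for each tested gene of 28 gene lists (rows, number tested in brackets). Red and blue points passed an adjusted p of 0.05, grey points did not, and the black bar is the median of the list. Fitted values of genes with 3 or fewer counts in a group depend on the prior count. Neural and heart muscle lists lie to the left of 0, globins, osteoclast and macrophage lists to the right, and ribosomal protein genes around 0.

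Genes that pattern the nervous system were lower in 6A as a group. Of 18 tested regulators of the anterior neural plate and forebrain, 12 fell and 0 rose, and the median log2 fold change was -3.01. Their summed level was 30.9 and 33.1 CPM in 6A, against 106 and 107 CPM in WT. Dlx1, which acts in the ventral forebrain, had 0.676 and 0.386 CPM in 6A and 4.17 and 4.51 CPM in WT (log2 fold change -3.01 ± 0.40, adjusted p = 0.0002), and the groups did not overlap. Its antisense RNA Dlx1as had no count in 6A and was at least 18.2-fold lower in 6A, taking 3 counts over the group as the floor. The labels do not say whether counting separated the strands, so such partners cannot be told apart.

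Regulators of the midbrain, hindbrain and spinal cord were lower too, with 12 of 17 tested members lower, 0 higher and a median log2 fold change of -3.05. The summed level of the list was 2.91-fold lower, with 26.1 and 23.8 CPM in 6A, against 79.3 and 66.03 CPM in WT. Pax3, which marks the dorsal neural tube, had 0 and 0.2896 CPM in 6A, against 6.95 and 8.699 CPM in WT, a WT to 6A ratio of 55.2 (95% interval 18.6 to 270.2) (adjusted p = 3.1e-05). Wnt1, a signal of the midbrain and dorsal midline, had 0.193 and 0.193 CPM in 6A and 7.77 and 4.903 CPM in WT (log2 fold change -4.93 ± 0.54, adjusted p = 9.7e-05). Lmx1a, a factor of dopaminergic and roof plate progenitors, had 0.483 and 0.193 CPM in 6A, against 3.59 and 3.72 CPM in WT (log2 fold change -3.40 ± 0.49, adjusted p = 0.00038). For all of them both 6A libraries were under 0.5 CPM and no value overlapped with WT. Dbx1 and Nkx2-2, which divide the progenitors of the ventral and intermediate spinal cord, had no count in either 6A library, against 3.25 and 3.16 CPM for Dbx1 and 1.62 and 1.58 CPM for Nkx2-2 in the WT libraries. They were at least 22.1-fold and 11.04-fold lower in 6A (adjusted p = 0.00034 and 0.0025). En1, a homeobox gene of the midbrain and hindbrain border that limb ectoderm also uses, had 4.83 and 5.12 CPM in 6A and 3.71 and 2.37 CPM in WT (adjusted p = 0.12).

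Of 23 tested genes of neural progenitors, 19 fell, 0 rose and the median was -3.08. The summed level of the list fell less, 1.94-fold, with 236 and 242 CPM in 6A, against 470 and 460 CPM in WT. Sox1, the earliest specific marker of neuroectoderm, had 1.55 and 1.16 CPM in 6A, against 18.9 and 17.8 CPM in WT (log2 fold change -3.75 ± 0.39, adjusted p = 5.2e-05). Pax6, a regulator of eye and cortex progenitors, had 0.869 and 1.16 CPM in 6A, against 10.3 and 10.9 CPM in WT (-3.38 ± 0.28, adjusted p = 4.1e-06). The 2 libraries of each genotype were close to each other, and no 6A value reached a WT value. Pou3f3, a POU factor of progenitors and upper cortical neurons, had 3 counts in 6A against 186 in WT, a WT to 6A ratio of 60.4 (95% interval 20.3 to 295) (adjusted p = 2.7e-06).

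Neuron genes were lower with a smaller median. Among 25 tested neuron genes, 16 were lower, 0 were higher and the median was -1.57. The summed level of the list was 1.46-fold lower, with 502 and 568 CPM in 6A, against 771 and 793 CPM in WT. Dcx, a microtubule protein of migrating neurons, had 1.16 and 1.16 CPM in 6A, against 21.2 and 19.3 CPM in WT (-4.11 ± 0.29, adjusted p = 2.4e-06). Elavl3 and Elavl4, RNA-binding proteins of postmitotic neurons, differed less: Elavl3 had 4.06 and 3.57 CPM in 6A, against 15.9 and 15.7 CPM in WT (-2.04 ± 0.21, adjusted p = 2.3e-05). Elavl4 had 1.83 and 1.74 CPM in 6A, against 16.3 and 14.00 CPM in WT (-3.07 ± 0.24, adjusted p = 2.5e-06). In each case both 6A libraries were below both WT libraries. Genes for transmitter synthesis, transport and peptides had 6 lower and 0 higher members among 13 tested. Reln, secreted by early cortical neurons, had 10.7 and 13.6 CPM in 6A, against 29.6 and 33.2 CPM in WT (-1.37 ± 0.17, adjusted p = 0.00014). Of 17 tested ionotropic receptor genes, 6 were lower, with the AMPA receptor subunit gene Gria2 at 4.15 and 6.56 CPM in 6A, against 14.1 and 19.4 CPM in WT (-1.65 ± 0.27, adjusted p = 0.0014). A further 2 were higher (0 to 2 with 1 library left out).

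Axon guidance genes moved in both directions. Of 31 tested, 12 were lower and 3 were higher, and the higher count was 1 without WT day 14 replicate 1 and 1 without 6A day 14 replicate 2. Ntn1, the secreted guidance cue netrin-1, had 3.67 and 4.05 CPM in 6A, against 21.1 and 22.7 CPM in WT (-2.50 ± 0.22, adjusted p = 7.1e-06), and its receptor gene Dcc had 0.579 and 1.16 CPM in 6A, against 35.7 and 40.4 CPM in WT (-5.44 ± 0.35, adjusted p = 1.8e-06). Plxna4, a semaphorin receptor whose gene lies on chromosome 6, moved the other way, with 662 and 724 CPM in 6A, against 335 and 356 CPM in WT (1.00 ± 0.15, adjusted p = 0.00045). The groups did not overlap in any of the 3 genes. Glia genes had 5 lower and 0 higher of 12 tested, among them Ncan, a proteoglycan of the neural matrix, with 1.74 and 1.16 CPM in 6A, against 24.9 and 21.7 CPM in WT (-4.00 ± 0.26, adjusted p = 6.2e-07). The astrocyte marker Gfap had 1 count in 6A and 9 in WT and was not tested.

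Neural crest and placode genes were lower in part. Of 14 tested crest and melanocyte genes, 3 fell: Tfap2b had 1.26 and 1.54 CPM in 6A, against 13.6 and 19.9 CPM in WT (-3.58 ± 0.27, adjusted p = 2.1e-06), and Tfap2a had 0.676 and 0.579 CPM in 6A, against 4.52 and 2.69 CPM in WT (-2.46 ± 0.46, adjusted p = 0.0026). Both encode AP-2 factors that specify crest and surface ectoderm. The third, Erbb3, a neuregulin receptor of crest-derived glia, had 24.5 and 25.97 CPM in 6A, against 41.3 and 42.9 CPM in WT (-0.74 ± 0.13, adjusted p = 0.0017). Foxd3, an early crest factor that stem cells express too, had 2.897 and 2.32 CPM in 6A and 3.48 and 2.06 CPM in WT (adjusted p = 0.97). Among 9 tested placode, eye and ear genes, 4 fell, among them genes of the Eya family, transcriptional cofactors of placodes and muscle precursors. One of these, Eya2, had 2.22 and 2.12 CPM in 6A, against 11.2 and 9.57 CPM in WT (-2.25 ± 0.27, adjusted p = 9.6e-05).

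Heart muscle genes were lower over nearly the whole contractile apparatus. Of 23 tested sarcomere genes, 21 fell and 0 rose. The median log2 fold change was -2.51, and the count stayed at 21 in each fit without a library. The summed level of the list fell less, 2.18-fold, with 1390 and 1371 CPM in 6A, against 2954 and 3058 CPM in WT. Tnnt2, cardiac troponin T, had 19.4 and 17.1 CPM in 6A, against 58.4 and 66.5 CPM in WT (-1.78 ± 0.20, adjusted p = 5.1e-05). Mybpc3, the cardiac myosin-binding protein C, had 8.11 and 8.398 CPM in 6A, against 64.7 and 57.6 CPM in WT (-2.89 ± 0.16, adjusted p = 1.9e-07). Ldb3, a PDZ-LIM protein of the Z disc, had 16.1 and 15.6 CPM in 6A, against 90.5 and 79.00 CPM in WT (-2.41 ± 0.16, adjusted p = 4.8e-07). The 6A libraries were low and tightly spaced, the WT libraries high, with no overlap.

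The promoters of the sarcomere genes were searched for the CArG box, the binding motif of serum response factor, a known regulator of muscle genes. RefSeq promoters (build GRCm38.p6) were found for 21 of the 25 listed genes, and 6 of them held a CArG box in the 250 bases before the start: Actc1, Ldb3, Myl3, Myl7, Myom1 and Nebl. One was found in 439 of all 27025 genes with a promoter, which is 1.62%. The motif was searched on both strands, where it reads the same. The 150 bases before the start of 3 of these genes are shown with the CArG box in capitals, for Actc1 at chr2:114052876-114053025 (minus strand), for Myl7 at chr11:5898783-5898932 (minus strand) and for Ldb3 at chr14:34588682-34588831 (minus strand). A match of letters is not evidence of binding.
Actc1: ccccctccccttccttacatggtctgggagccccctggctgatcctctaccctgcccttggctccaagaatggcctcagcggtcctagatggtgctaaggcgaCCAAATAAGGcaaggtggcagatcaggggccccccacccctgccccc
Myl7: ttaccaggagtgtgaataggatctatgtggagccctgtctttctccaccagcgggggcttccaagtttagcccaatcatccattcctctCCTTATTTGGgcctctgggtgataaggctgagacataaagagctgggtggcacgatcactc
Ldb3: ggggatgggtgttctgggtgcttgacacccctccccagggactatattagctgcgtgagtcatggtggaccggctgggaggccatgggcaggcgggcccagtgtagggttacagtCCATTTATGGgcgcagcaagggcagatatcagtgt

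The list of heart transcription factors was affected less evenly, and its falls include a cofactor, Ankrd1, and a methyltransferase, Smyd1. Of 19 tested, 10 fell and 0 rose, and the median was -0.86. The count of falls was 6 without WT day 14 replicate 1 and 6 without 6A day 14 replicate 1. Nkx2-5, a homeobox factor of cardiac progenitors, had 2.22 and 2.22 CPM in 6A, against 7.998 and 6.88 CPM in WT (-1.73 ± 0.28, adjusted p = 0.00087). Myocd, the coactivator myocardin that works with serum response factor, had 5.698 and 10.4 CPM in 6A, against 28.6 and 28.9 CPM in WT (-1.84 ± 0.25, adjusted p = 0.00028). Ankrd1, a stretch-responsive cofactor of heart muscle, had 7.34 and 8.78 CPM in 6A, against 65.8 and 76.5 CPM in WT (-3.14 ± 0.17, adjusted p = 1.9e-07). These were lower in both 6A libraries than in either WT library. Smyd1, a muscle methyltransferase needed for sarcomere assembly, had 6.76 and 6.66 CPM in 6A, against 35.1 and 34.95 CPM in WT (-2.38 ± 0.18, adjusted p = 2.4e-06).

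Genes of calcium handling, conduction and natriuretic peptides had 13 lower and 0 higher members of 23 tested, with a median of -0.86. Ryr2, the calcium release channel of the sarcoplasmic reticulum, had 58.1 and 49.04 CPM in 6A, against 116 and 136 CPM in WT (-1.23 ± 0.18, adjusted p = 0.00053). Pln, phospholamban, which restrains the calcium pump, had 0.483 and 1.83 CPM in 6A, against 18.7 and 14.9 CPM in WT (-3.84 ± 0.39, adjusted p = 0.00011). The 6A libraries differed from each other for Pln but stayed under both WT libraries. Nppa, the atrial natriuretic peptide, had 2 counts in 6A and 7 in WT and was not tested. Of 15 tested genes of muscle energy metabolism, 6 fell and 1 rose (0 to 2 with 1 library left out). Mb, myoglobin, had 0.773 and 0.193 CPM in 6A, against 6.61 and 6.09 CPM in WT (-3.68 ± 0.45, adjusted p = 0.00011), and Pygm, muscle glycogen phosphorylase, had 7.34 and 7.82 CPM in 6A, against 24.6 and 26.2 CPM in WT (-1.74 ± 0.17, adjusted p = 2.1e-05). No 6A library reached a WT library for either gene. The defining regulators of skeletal muscle, Myod1 and Myog, were under 1 CPM in every day 14 library.

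Smooth muscle genes fell as well, 10 of 17 tested with 0 higher and a median of -0.56, and the count of falls was 6 without WT day 14 replicate 1 and 6 without 6A day 14 replicate 2. Synpo2, an actin-bundling protein of the Z disc and smooth muscle, had 12.7 and 12.7 CPM in 6A, against 54.7 and 58.2 CPM in WT (-2.15 ± 0.15, adjusted p = 1.1e-06). Myh11, smooth muscle myosin, had 3.09 and 2.22 CPM in 6A, against 9.16 and 10.4 CPM in WT (-1.89 ± 0.26, adjusted p = 0.00029). Cnn1, calponin, had 9.27 and 9.07 CPM in 6A, against 33.3 and 26.3 CPM in WT (-1.69 ± 0.20, adjusted p = 7e-05). Each was lower in both 6A libraries. Actg2, the gamma actin of smooth muscle and the most abundant of those named here, had 136 and 119 CPM in 6A, against 253 and 245 CPM in WT (-0.97 ± 0.11, adjusted p = 7.3e-05).

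**Figure D2:**
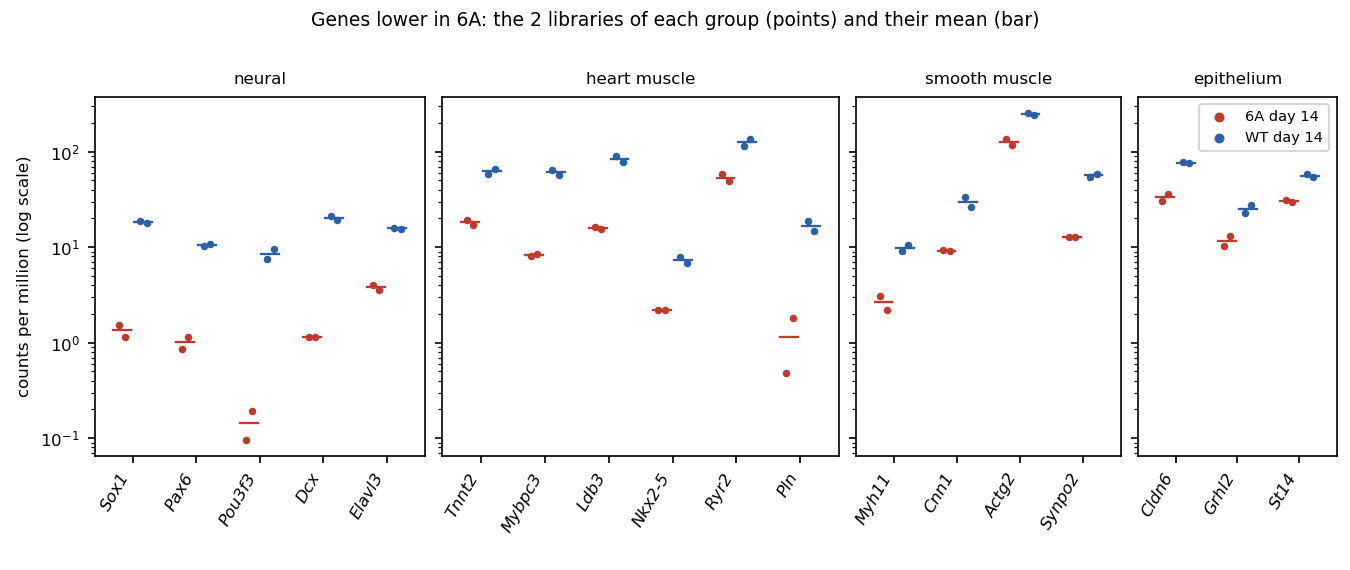
Levels (CPM, log scale) of genes lower in 6A, with the 2 libraries of each group as points (6A red, left; WT blue, right) and their mean as a bar. In each gene shown the 6A points lie below the WT points, by the most for Pou3f3.

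Epithelial genes were lower in most of the tested members at day 14. The list was already shifted at day 0, with a median log2 fold change of -0.46 and 4 members called. The test of the genotype by day interaction, given below, called 3 members. Of 25 tested genes of simple epithelia, 15 fell and 1 rose (0 to 1 with 1 library left out), with a median of -0.62. The count of falls was 9 with DESeq2, 9 without WT day 14 replicate 1 and 8 without 6A day 14 replicate 1. Grhl2, a transcription factor that maintains epithelial junctions, had 10.2 and 13.1 CPM in 6A, against 22.95 and 27.8 CPM in WT (-1.13 ± 0.18, adjusted p = 0.00082). Cldn6, a claudin of embryonic epithelia, had 30.6 and 35.9 CPM in 6A, against 78.2 and 75.4 CPM in WT (-1.21 ± 0.18, adjusted p = 0.00064). The groups did not overlap. Cdh1, E-cadherin, varied within 6A, with 96.8 and 144 CPM there and 166 and 183 CPM in WT. Both 6A values were below both WT values, but the difference was not called (-0.54 ± 0.28, adjusted p = 0.27). It was called in the fit of the 4 day 14 libraries alone (adjusted p = 0.026) and with the replicate block (adjusted p = 0.006). The pioneer factor Foxa1, of endoderm, had 7.05 and 9.36 CPM in 6A, against 36.6 and 34.2 CPM in WT (-2.11 ± 0.23, adjusted p = 3.7e-05). Across 17 tested endoderm factors the balance was 2 higher (0 to 5 with 1 library left out) and 4 lower (2 to 5).

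Vessel and blood genes that changed were nearly all higher in 6A. Of 26 tested endothelial genes, 7 rose and 0 fell, with a median of 0.46, and the count of rises was 4 without WT day 14 replicate 1, 4 without 6A day 14 replicate 1 and 3 without WT day 14 replicate 2. Tek, the angiopoietin receptor Tie2, had 58.4 and 59.8 CPM in 6A, against 21.4 and 26.2 CPM in WT (1.30 ± 0.14, adjusted p = 3e-05). Aplnr, the apelin receptor of early vessels and mesoderm, had 30.3 and 35.7 CPM in 6A, against 12.2 and 15.2 CPM in WT (1.26 ± 0.19, adjusted p = 0.00065). Sox7, an endothelial and endoderm factor, had 11.2 and 15.5 CPM in 6A, against 4.87 and 4.82 CPM in WT (1.46 ± 0.22, adjusted p = 0.00063). Both 6A libraries stood above both WT libraries. Cdh5, VE-cadherin, had 84.7 and 97.6 CPM in 6A, against 52.6 and 49.7 CPM in WT (0.83 ± 0.16, adjusted p = 0.0026), and lost its call without WT day 14 replicate 2 (adjusted p = 0.054).

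Of the 12 globin genes in the tables, only the 3 embryonic ones, Hba-x, Hbb-bh1 and Hbb-y, had enough counts to test, and all 3 rose. The 12 genes together had 74.9 and 75.1 CPM in 6A, against 1.51 and 1.03 CPM in WT. At day 0 they had 0.342 and 0.601 CPM in 6A and 1.11 and 0.636 CPM in WT. The tested globins thus passed the filter on low counts through the 6A day 14 libraries. Their shared direction was nearly fixed by that filter, and the count of rises adds little. Hba-x, the zeta chain of primitive red cells, had 27.6 and 28.96 CPM in 6A, against 0.464 and 0.316 CPM in WT (6.19 ± 0.37, adjusted p = 2.9e-07). The other 9 globin genes, adult chains among them, had at most 1 count in all 4 libraries. The 150 bases before the start of Hba-x (GRCm38.p6 promoter of RefSeq, chr11:32276450-32276599, plus strand) are shown with GATAA, a core of the site of GATA factors, and CACCC, the core of the site of Kruppel-like factors, in capitals. Of the 9 globin genes with a promoter in the table, 7 held GATAA and 6 held CACCC in the 250 bases before the start on either strand, against 25.5% and 54.5% of all genes. These genes include globins with too few counts to test, so the shares do not describe the globins that rose. In the 150 bases before the start of Hbb-y, which rose too, CACCC occurred but GATAA did not, on either strand.
Hba-x: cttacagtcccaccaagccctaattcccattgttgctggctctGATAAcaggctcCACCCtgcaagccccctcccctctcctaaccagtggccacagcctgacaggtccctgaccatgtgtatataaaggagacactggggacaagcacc
Genes of the red cell membrane, heme and iron had 6 rises and 1 fall (0 to 1 with 1 library left out) among 24 tested. Alas2, the erythroid enzyme that starts heme synthesis, had 3.57 and 3.38 CPM in 6A, against 0.116 and 0.0791 CPM in WT, where 72 counts stood against 2, a 6A to WT ratio of 36.97 (95% interval 9.87 to 311) (adjusted p = 0.00025). The gene was low in absolute terms in 6A and under the 3-count floor in both WT libraries.

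Among 21 tested transcription factors of blood, 7 rose and 0 fell. The count of rises was 4 without 6A day 14 replicate 1, 3 without WT day 14 replicate 2 and 4 without 6A day 14 replicate 2. Tal1, which specifies blood and vessel progenitors, had 9.56 and 10.3 CPM in 6A, against 3.94 and 4.59 CPM in WT (1.21 ± 0.25, adjusted p = 0.0047), and lost its call without WT day 14 replicate 1 (adjusted p = 0.061). Spi1, the myeloid factor PU.1, had 24.6 and 20.8 CPM in 6A, against 11.01 and 8.86 CPM in WT (1.20 ± 0.19, adjusted p = 0.00084). The groups did not overlap for either gene. Macrophage and myeloid genes rose in 19 of 28 tested members and fell in 1 (0 to 1 with 1 library left out), with a median of 0.79. The count of rises was 11 with DESeq2, 9 without WT day 14 replicate 1, 9 without 6A day 14 replicate 1, 7 without WT day 14 replicate 2 and 10 without 6A day 14 replicate 2. Csf1r, the receptor for macrophage colony-stimulating factor, had 118 and 109.8 CPM in 6A, against 49.3 and 49.9 CPM in WT (1.20 ± 0.14, adjusted p = 5.7e-05). Adgre1, the surface antigen F4/80, had 38.05 and 40.2 CPM in 6A, against 14.8 and 13.7 CPM in WT (1.46 ± 0.17, adjusted p = 8.8e-05). C1qa, a chain of complement C1q, had 45.7 and 35.4 CPM in 6A, against 16.8 and 13.5 CPM in WT (1.43 ± 0.18, adjusted p = 0.00015). In all 3, each 6A library was above each WT library.

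Genes of osteoclasts, the bone-resorbing cells of the same lineage, had a larger median change. Of 10 tested, 8 rose and 1 fell (0 to 1 with 1 library left out), with a median of 2.20, and the count of rises was 4 with DESeq2, 4 without WT day 14 replicate 1, 5 without 6A day 14 replicate 1, 5 without WT day 14 replicate 2 and 5 without 6A day 14 replicate 2. Mmp9, a gelatinase, had 96.6 and 64.00 CPM in 6A, against 11.5 and 12.3 CPM in WT (2.75 ± 0.20, adjusted p = 1.8e-06). Acp5, tartrate-resistant acid phosphatase, had 28.5 and 23.3 CPM in 6A, against 4.06 and 4.82 CPM in WT (2.53 ± 0.20, adjusted p = 3.3e-06). Atp6v0d2, a proton pump subunit of osteoclasts, had 4.35 and 8.01 CPM in 6A, against 1.16 and 0.949 CPM in WT (2.56 ± 0.43, adjusted p = 0.0012). The 6A libraries were the high ones in each case, with 6A replicate 1 above replicate 2 for Mmp9. Genes of the lysosome, abundant in macrophages but used by all cells, had 14 rises and 0 falls of 33 tested and a median of 0.35. The count of rises was 6 without WT day 14 replicate 1, 6 without 6A day 14 replicate 1, 3 without WT day 14 replicate 2 and 8 without 6A day 14 replicate 2. Man2b1, lysosomal alpha-mannosidase, had 199 and 190.0 CPM in 6A, against 128 and 119 CPM in WT (0.66 ± 0.11, adjusted p = 0.0012). The summed level of the lysosome list was 6774 and 6586 CPM in 6A, against 5276 and 4858 CPM in WT, and that of the macrophage list was 935 and 947 CPM in 6A, against 556 and 557 CPM in WT. The part of the macrophage genes in the lysosome values was not tested.

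For the visceral endoderm and yolk sac, the endoderm that feeds the early embryo, 9 of 21 tested members of an endocytosis and transport list were higher in 6A. The 9 include Maf, a transcription factor and not an uptake gene. The secreted markers Afp and Ttr were not called. Afp, alpha-fetoprotein, had 88.2 and 98.2 CPM in 6A and 91.9 and 95.3 CPM in WT (adjusted p = 0.99), and Ttr, transthyretin, had 31.2 and 32.4 CPM in 6A and 41.6 and 35.98 CPM in WT (adjusted p = 0.38). The groups overlapped for Afp. Of 21 tested endocytosis and transport genes, 9 rose and 0 fell, with a median of 0.59, and the count of rises was 5 without any 1 of the 4 day 14 libraries and 5 with DESeq2. Cubn, cubilin, an endocytic receptor, had 94.2 and 115 CPM in 6A, against 21.1 and 19.1 CPM in WT (2.38 ± 0.15, adjusted p = 3.6e-07). Its partner Lrp2, megalin, had 116 and 120.1 CPM in 6A, against 65.4 and 73.2 CPM in WT (0.77 ± 0.13, adjusted p = 0.0012). Dpp4, a brush border peptidase, had 22.98 and 20.6 CPM in 6A, against 10.1 and 9.41 CPM in WT (1.16 ± 0.17, adjusted p = 0.00045). All 6A values were above all WT values. Maf, a transcription factor of yolk sac endoderm and macrophages, had 344 and 362 CPM in 6A, against 158 and 162 CPM in WT (1.14 ± 0.12, adjusted p = 2.8e-05). Among 22 tested secreted proteins, 5 rose (1 to 8 with 1 library left out) and 2 fell (1 to 4). Apob, the structural apolipoprotein of lipoproteins, had 189 and 231 CPM in 6A, against 96.1 and 112 CPM in WT (1.01 ± 0.14, adjusted p = 0.00038), while Vtn, vitronectin, had 5.31 and 4.15 CPM in 6A, against 14.6 and 15.7 CPM in WT (-1.68 ± 0.25, adjusted p = 0.00046). Of 14 tested trophoblast genes, 7 rose (2 to 7 with 1 library left out) and 2 fell. Plac1, an X-linked gene of the placenta, had 8.498 and 9.65 CPM in 6A, against 2.898 and 2.69 CPM in WT (1.70 ± 0.30, adjusted p = 0.0017), whereas Gata3, a trophoblast and surface ectoderm factor, had 15.8 and 17.1 CPM in 6A, against 30.6 and 28.5 CPM in WT (-0.84 ± 0.15, adjusted p = 0.0021).

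**Figure D3:**
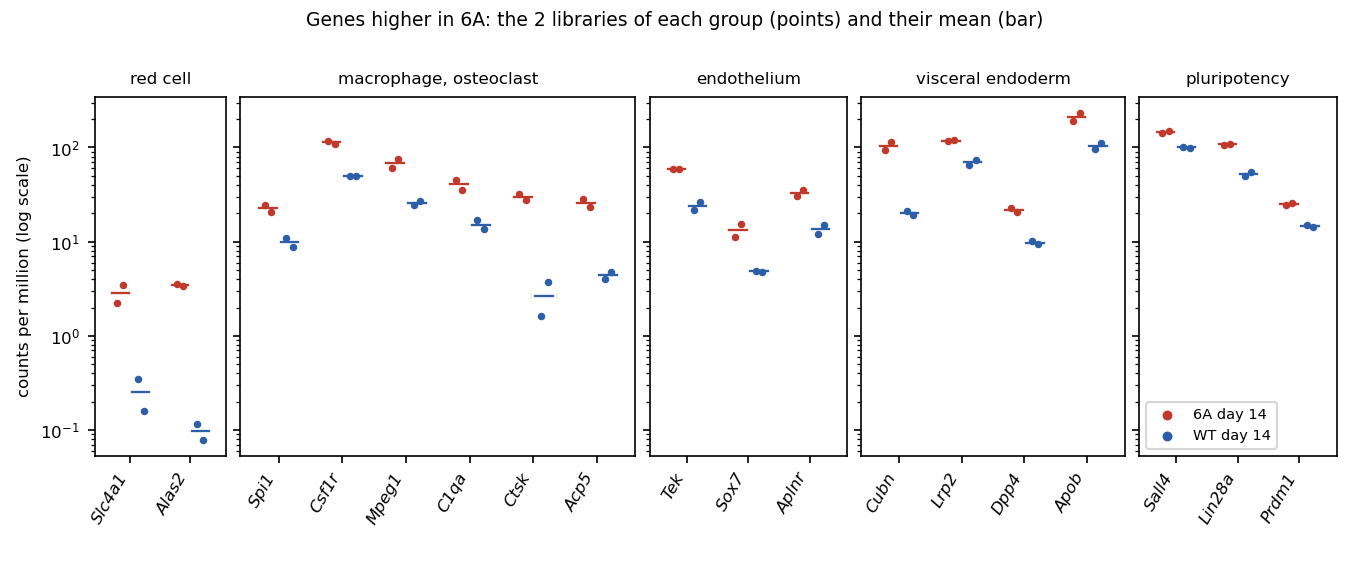
Levels (CPM, log scale) of genes higher in 6A, with the 2 libraries of each group as points (6A red, left; WT blue, right) and their mean as a bar. In each gene shown the 6A points lie above the WT points, by the most for the red cell genes and Ctsk and by the least for Sall4. Prdm1 is drawn beside the pluripotency genes but belongs to the germline list.

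Pluripotency genes were somewhat higher in 6A. Of 23 tested, 9 rose and 0 fell, with a median of 0.54, and the count of rises was 4 without WT day 14 replicate 2 and 5 without 6A day 14 replicate 2. Lin28a, an RNA-binding protein that blocks let-7 processing, had 106 and 109 CPM in 6A, against 49.7 and 55.3 CPM in WT (1.03 ± 0.11, adjusted p = 4.6e-05). Sall4, a zinc finger factor of stem cells, had 143 and 149.7 CPM in 6A, against 102 and 99.9 CPM in WT (0.54 ± 0.11, adjusted p = 0.0044). No WT library reached a 6A library. Nanog, a core factor of the naive state, had 139 and 145 CPM in 6A, against 90.3 and 102 CPM in WT (0.56 ± 0.13, adjusted p = 0.011), and lost its call without WT day 14 replicate 1 (adjusted p = 0.12), without 6A day 14 replicate 1 (adjusted p = 0.052) and without 6A day 14 replicate 2 (adjusted p = 0.074). Genes of the primitive streak had 3 rises (1 to 5 with 1 library left out) and 1 fall (0 to 1) of 14 tested. In the germline list, Prdm1, a repressor of germ cells, endoderm and macrophages, had 24.6 and 25.8 CPM in 6A, against 14.95 and 14.5 CPM in WT (0.78 ± 0.14, adjusted p = 0.0018).

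Hox genes, which give cells their position along the body axis, were higher wherever they changed, in 8 of the tested genes. Among paralog groups 1 to 5, 1 of 13 tested genes rose, with a median of 0.25. In groups 6 to 9, 2 of 10 rose, with a median of 0.87, and in groups 10 to 13, 5 of 10 rose, with a median of 0.78 (0.83 without Hoxc12, which had no count at day 14). No Hox gene fell. With 1 library left out, the counts in this order were 0 to 1, 0 to 3 and 1 to 7. Hoxa10 had 20.5 and 20.1 CPM in 6A, against 9.27 and 9.01 CPM in WT (1.15 ± 0.18, adjusted p = 0.00082) and kept its call in every alternative except the test against a log2 change of 1. Hoxc10 had 6.66 and 7.24 CPM in 6A, against 2.43 and 3.32 CPM in WT (1.24 ± 0.27, adjusted p = 0.0065), and lost its call with DESeq2 (adjusted p = 0.051), without WT day 14 replicate 1 (adjusted p = 0.076) and without 6A day 14 replicate 2 (adjusted p = 0.051). The difference between paralog groups was not tested. At day 0 the median of groups 10 to 13 was 0.60, with summed levels of 93.8 and 104 CPM in 6A, against 68.2 and 68.7 CPM in WT. The summed levels at day 14 were 63.5 and 67.4 CPM in 6A, against 35.7 and 33.1 CPM in WT. The day 0 medians of groups 1 to 5 and 6 to 9 were -0.13 and 0.21. No Hox gene was called in the test of the genotype by day interaction given below.

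**Figure D4:**
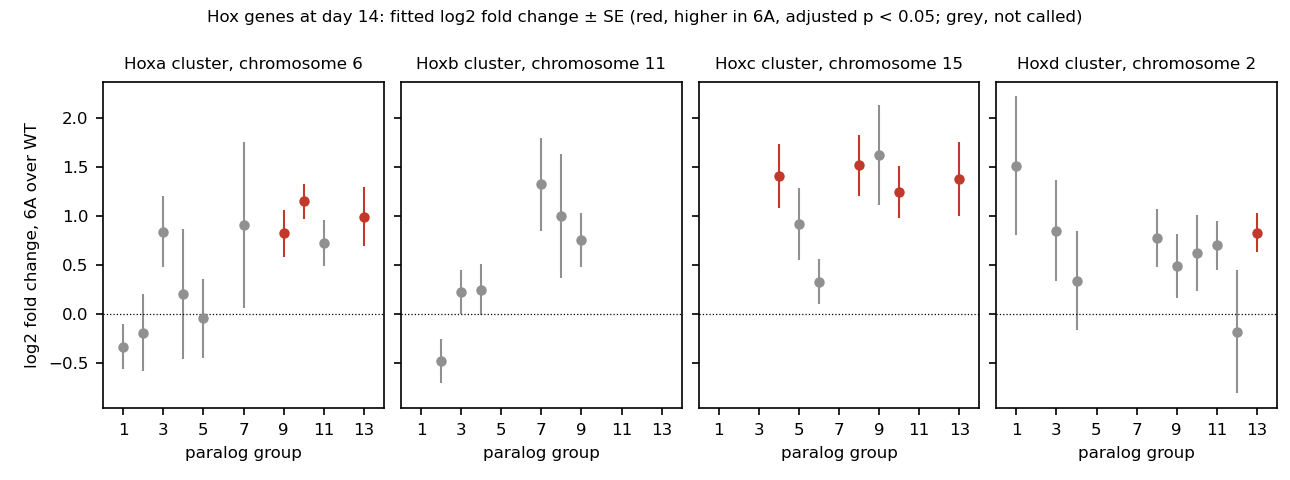
Fitted log2 fold change of 6A over WT at day 14 with its SE (y axis) for the tested Hox genes with any count at day 14, by paralog group (x axis) in the 4 clusters. Red points passed an adjusted p of 0.05, all of them above 0, and 7 of the 8 belong to groups 8 to 13.

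The Hoxa cluster, with Hoxa10 and other called Hox genes, lies on chromosome 6, as do Nanog and Plxna4. Genes of chromosome 6 were shifted as a whole. The median log2 fold change over its 785 tested genes was 0.15 at day 14, whereas the other autosomes lay between -0.041 and 0.027 and the X chromosome at 0.085. On chromosome 6, 93 genes were called higher, which is 11.9% of those tested, and 55 lower. At day 0 the median of chromosome 6 was 0.045, within the range of the other autosomes. The part of the chromosome-wide value in the calls of single chromosome 6 genes was not tested.

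**Figure D5:**
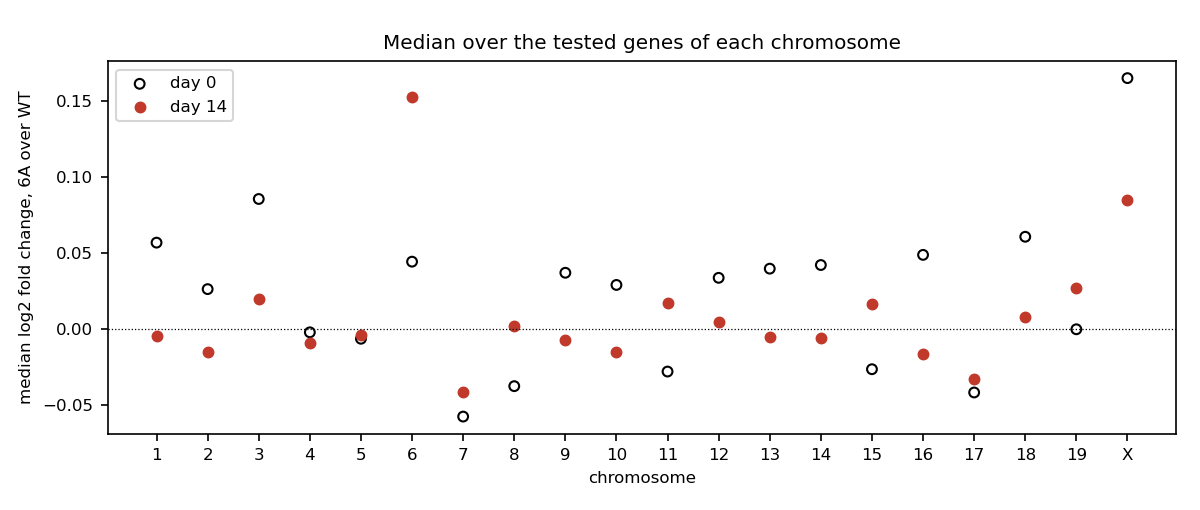
Median log2 fold change of 6A over WT (y axis) over the tested genes of each chromosome (x axis), at day 14 (red) and at day 0 (open). Chromosome 6 is the highest at day 14, and the X chromosome is the highest of those drawn at day 0. The Y chromosome, with 5 tested genes, is not drawn.

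Signalling pathways changed member by member. In the Wnt list, 9 of 33 tested genes fell and 2 rose (0 to 4 with 1 library left out). Axin2, a feedback target of canonical Wnt signalling, had 15.3 and 9.75 CPM in 6A, against 27.7 and 29.3 CPM in WT (-1.19 ± 0.21, adjusted p = 0.0019). Rnf43, which removes Wnt receptors, had 5.89 and 4.25 CPM in 6A, against 15.4 and 15.7 CPM in WT (-1.61 ± 0.22, adjusted p = 0.00028). The ligand gene Wnt7b, active in neural and lung epithelium, had 6.57 and 6.56 CPM in 6A, against 21.4 and 20.4 CPM in WT (-1.67 ± 0.19, adjusted p = 5.6e-05). For these 3 genes the groups did not overlap, while Lef1, a nuclear effector and target, came close to overlap, with 17.96 and 24.8 CPM in 6A and 25.5 and 29.97 CPM in WT (adjusted p = 0.23). In the Notch list 8 of 19 fell and 2 rose (0 to 3 with 1 library left out). The ligand gene Jag2 had 8.498 and 8.302 CPM in 6A, against 24.8 and 22.6 CPM in WT (-1.49 ± 0.21, adjusted p = 0.00038), and the target Heyl, a vascular smooth muscle repressor, had 11.6 and 9.94 CPM in 6A, against 25.04 and 23.96 CPM in WT (-1.18 ± 0.18, adjusted p = 0.00051). Hes1, a target in many cell types, had 149 and 134 CPM in 6A and 159.7 and 134 CPM in WT (adjusted p = 0.84).

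Hedgehog genes had 5 falls (3 to 5 with 1 library left out) and 1 rise (0 to 1) among 13 tested. The ligand gene Shh, a product of floor plate and gut, had 2.61 and 4.34 CPM in 6A, against 11.5 and 11.5 CPM in WT (-1.72 ± 0.28, adjusted p = 0.0015). Its transcriptional targets Gli1 and Hhip were lower too, Gli1 with 14.1 and 15.4 CPM in 6A, against 31.3 and 31.5 CPM in WT (-1.09 ± 0.16, adjusted p = 0.00051). Hhip, which binds and limits the ligand, had 15.3 and 16.5 CPM in 6A, against 42.8 and 51.2 CPM in WT (-1.57 ± 0.17, adjusted p = 3.5e-05). In each, both WT libraries were the higher ones. The BMP and TGF-beta list was mixed, with 5 rises (3 to 5 with 1 library left out) and 6 falls (3 to 8) of 31 tested. Bmp7 had 16.1 and 19.2 CPM in 6A, against 45.3 and 40.4 CPM in WT (-1.28 ± 0.16, adjusted p = 0.00012), and the BMP antagonist gene Grem1 had 1.16 and 0.869 CPM in 6A, against 6.14 and 5.85 CPM in WT (-2.55 ± 0.27, adjusted p = 3e-05). Ltbp2, a matrix protein of the latent TGF-beta binding family, had 40.8 and 33.3 CPM in 6A, against 12.1 and 10.04 CPM in WT (1.76 ± 0.17, adjusted p = 1.4e-05).

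Retinoid genes had 2 rises (1 to 2 with 1 library left out) and 5 falls (2 to 5) of 15 tested. Aldh1a1, which makes retinoic acid, had 57.9 and 56.1 CPM in 6A, against 17.3 and 18.9 CPM in WT (1.65 ± 0.14, adjusted p = 6.7e-06), whereas Cyp26b1, which degrades it, had 7.24 and 7.63 CPM in 6A, against 20.3 and 17.00 CPM in WT (-1.32 ± 0.22, adjusted p = 0.0013). The groups did not overlap in either. Of the FGF list 4 of 20 fell (2 to 4 with 1 library left out) and 2 rose (1 to 2), with Fgfr3, a receptor of neural progenitors and cartilage, at 31.8 and 31.4 CPM in 6A, against 75.00 and 66.9 CPM in WT (-1.17 ± 0.18, adjusted p = 0.0006). Among insulin-like growth factor genes the binding proteins went opposite ways. Igfbp3 had 671 and 636 CPM in 6A, against 289 and 259.5 CPM in WT (1.25 ± 0.13, adjusted p = 2.5e-05), and Igfbp5 had 479 and 477 CPM in 6A, against 988 and 973 CPM in WT (-1.04 ± 0.11, adjusted p = 3e-05). The growth factor gene Igf2 had 671 and 755 CPM in 6A and 869 and 779 CPM in WT (adjusted p = 0.29).

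Connective tissue genes had no common direction. Of 36 tested mesenchyme and fibroblast genes, 5 rose (4 to 5 with 1 library left out) and 7 fell (4 to 10). Dcn, the proteoglycan decorin, had 369 and 403 CPM in 6A, against 202 and 193 CPM in WT (0.97 ± 0.12, adjusted p = 0.00011), and Wt1, a factor of mesothelium and kidney, had 159 and 166 CPM in 6A, against 78.7 and 84.5 CPM in WT (0.99 ± 0.13, adjusted p = 0.00017). Eln, elastin, had 19.7 and 18.6 CPM in 6A, against 93.2 and 73.5 CPM in WT (-2.12 ± 0.16, adjusted p = 2.7e-06). The 6A libraries were the high ones for Dcn and Wt1 and the low ones for Eln. Collagen I and III differed more between the 2 libraries of 6A than between genotypes: Col1a1 had 3929.7 and 2097 CPM in 6A and 2477 and 2222 CPM in WT (adjusted p = 0.68). In the basement membrane list 3 of 27 rose (2 to 6 with 1 library left out) and 5 fell (4 to 6). Lama1, the laminin chain of early embryos and Reichert's membrane, had 487 and 478 CPM in 6A, against 176 and 184 CPM in WT (1.42 ± 0.13, adjusted p = 7.3e-06). Frem2, a protein that anchors embryonic epithelia, had 61.8 and 63.4 CPM in 6A, against 260.1 and 270.3 CPM in WT (-2.08 ± 0.12, adjusted p = 1.9e-07). Cartilage and bone genes had 5 falls (3 to 6 with 1 library left out) and 0 rises of 21 tested, with Col2a1, the main cartilage collagen, at 13.2 and 11.00 CPM in 6A, against 91.6 and 68.1 CPM in WT (-2.72 ± 0.23, adjusted p = 1.1e-05).

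General programmes of the cell had few calls. Of 28 tested proliferation genes, 2 rose (0 to 6 with 1 library left out) and 0 fell, and Top2a, a topoisomerase of dividing cells, had 541 and 601 CPM in 6A and 548 and 597 CPM in WT (adjusted p = 0.99). Among 83 cytosolic ribosomal protein genes 2 rose (0 to 3 with 1 library left out) and 0 fell. Of 18 p53 target genes 1 rose (0 to 3 with 1 library left out) and 0 fell, with the cell cycle inhibitor gene Cdkn1a at 329 and 325 CPM in 6A and 359 and 302 CPM in WT (adjusted p = 0.95). The list of glycolysis and hypoxia genes had more, with 9 of 27 lower, 0 higher and a median of -0.31 (3 to 10 lower with 1 library left out). Vegfa, the hypoxia-induced growth factor of vessels, had 154 and 171 CPM in 6A, against 353 and 339 CPM in WT (-1.09 ± 0.12, adjusted p = 5.1e-05), and Egln3, a prolyl hydroxylase induced by hypoxia, had 36.99 and 40.1 CPM in 6A, against 73.03 and 73.9 CPM in WT (-0.93 ± 0.12, adjusted p = 0.00023). Both 6A libraries were below both WT libraries in each. The glucose transporter gene Slc2a1, induced by hypoxia as well, had 610.4 and 515 CPM in 6A and 604 and 501 CPM in WT (adjusted p = 0.94).

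Polycomb subunit genes had 3 rises (0 to 3 with 1 library left out) and 0 falls of 33 tested. Ezh2, the main methyltransferase of Polycomb repressive complex 2, had 86.6 and 86.4 CPM in 6A and 73.8 and 93.5 CPM in WT (adjusted p = 0.88). Of 28 long noncoding RNAs 9 fell and 1 rose (0 to 1 with 1 library left out), and the falls included the host gene of a copy of miR-124, the microRNA of neurons, Mir124a-1hg, with 0.579 and 0.676 CPM in 6A, against 6.26 and 6.801 CPM in WT (-3.36 ± 0.32, adjusted p = 1.3e-05). Among 31 imprinted genes 1 rose (0 to 2 with 1 library left out) and 3 fell (2 to 5), with Asb4, a maternally expressed gene of placenta and brain, at 30.1 and 30.99 CPM in 6A, against 56.6 and 54.6 CPM in WT (-0.86 ± 0.13, adjusted p = 0.00074).

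Outside the lists, Rfx4, a factor of neural tube patterning, had 3 counts in 6A against 140 in WT, a WT to 6A ratio of 45.4 (95% interval 15.2 to 223) (adjusted p = 7e-06). Insm1, a zinc finger factor of neuronal and endocrine progenitors, had 0.579 and 0.483 CPM in 6A, against 8.58 and 5.46 CPM in WT (-3.67 ± 0.47, adjusted p = 0.00015). Alpk2, a kinase linked to heart development in fish, had 1.35 and 1.93 CPM in 6A, against 19.4 and 16.1 CPM in WT (-3.42 ± 0.28, adjusted p = 1.3e-05). All were lower in both 6A libraries. The rises outside the lists included the C-type lectin gene Clec12a of chromosome 6. It encodes an inhibitory receptor of myeloid cells and had 11.2 and 12.6 CPM in 6A, against 2.32 and 1.58 CPM in WT (2.64 ± 0.29, adjusted p = 7e-05), and C3, the central complement protein, had 32.6 and 31.4 CPM in 6A, against 9.39 and 9.09 CPM in WT (1.79 ± 0.17, adjusted p = 1.4e-05). Angptl7, a secreted angiopoietin-like protein, had 204 and 192 CPM in 6A, against 38.7 and 46.9 CPM in WT (2.20 ± 0.14, adjusted p = 4e-07). The 6A libraries were above the WT libraries without overlap in each.

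Among abundant genes outside the lists, changes went in both directions. Sox11, a factor of immature neurons and mesenchyme, had 199.9 and 229 CPM in 6A, against 420.3 and 423 CPM in WT (-0.97 ± 0.12, adjusted p = 0.00014), and Cd24a, a small surface glycoprotein of neural and epithelial cells, had 221 and 261 CPM in 6A, against 469.7 and 412 CPM in WT (-0.87 ± 0.15, adjusted p = 0.0017). Timp3, an inhibitor of metalloproteases bound to the matrix, had 545 and 585 CPM in 6A, against 298 and 308 CPM in WT (0.90 ± 0.11, adjusted p = 7.6e-05). The first pair was low in both 6A libraries and Timp3 was high in both. Abca1, which exports cholesterol and is strong in macrophages and yolk sac, had 325 and 343 CPM in 6A, against 158 and 163 CPM in WT (1.06 ± 0.10, adjusted p = 2e-05). Podxl, a sialomucin of podocytes, endothelium and stem cells whose gene lies on chromosome 6, had 576 and 623 CPM in 6A, against 380.3 and 362 CPM in WT (0.69 ± 0.11, adjusted p = 0.001).

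The remaining lists were small or had few calls. Motile cilium genes had 2 falls (1 to 4 with 1 library left out) and 0 rises of 16 tested, one of them Foxj1, the master factor of motile cilia, with 1.93 and 1.06 CPM in 6A, against 5.796 and 5.54 CPM in WT (-1.91 ± 0.32, adjusted p = 0.0012). The ATF4 and amino acid response list had 4 rises (2 to 4 with 1 library left out) and 1 fall (0 to 1) of 20 tested. Slc7a3, a transporter of cationic amino acids, had 39.4 and 39.96 CPM in 6A, against 24.2 and 24.5 CPM in WT (0.70 ± 0.12, adjusted p = 0.0016). The interferon response list had 2 rises (1 to 4 with 1 library left out) and 0 falls of 30 tested. Foxj1 and Slc7a3 each had the groups apart in the direction of its call. Megakaryocyte and mast cell genes had 2 rises of 9 tested, germline genes 2 of 19, immediate early genes 3 rises and 1 fall of 18 and cholesterol synthesis genes 2 falls of 20. With 1 library left out these became 1 to 2, 1 to 3, 0 to 3 and 0 to 1, and 0 to 3. Collagens outside the basement membrane had 4 falls (3 to 6 with 1 library left out) and 1 rise (0 to 2) of 23 tested. Skeletal muscle genes had 1 fall (0 to 1) and 0 rises of 11.

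Part of the day 14 differences exceeded those of the undifferentiated cells. A test of the genotype by day interaction, the day 14 log2 fold change minus that at day 0, called 733 genes, which is 4.74% of those tested, and 604 of them were also called at day 14. Without 6A day 14 replicate 1 or 2 the interaction count was 341 and 465, and without WT day 14 replicate 1 or 2 it was 350 and 280. Without 6A day 0 replicate 2 it was 371. The interaction uses the same day 14 libraries, so a day 14 call and an interaction call are not independent. Tfap2b, the AP-2 factor named above, had 25.99 and 29.6 CPM in 6A and 17.3 and 19.1 CPM in WT at day 0, and its interaction was -4.20 ± 0.33 (adjusted p = 3.1e-05). At day 0 both 6A libraries were above both WT libraries for it, and at day 14 both were below. The 4 Y-linked genes together were at 43.4 and 46.9 CPM in 6A and 28.3 and 28.2 CPM in WT at day 0 and had 0 or 1 counts at day 14, and their part in the day 0 and interaction values was not tested. Eya4, another cofactor of the Eya family, had 4.28 and 4.47 CPM in 6A and 1.73 and 1.98 CPM in WT at day 0, and 7.24 and 8.01 CPM in 6A and 16.9 and 18.3 CPM in WT at day 14, with an interaction of -2.42 ± 0.31 (adjusted p = 0.00074). Cubn had 3.85 and 4.34 CPM in 6A and 4.32 and 3.95 CPM in WT at day 0 and an interaction of 2.38 ± 0.26 (adjusted p = 0.00027). Ankrd1 had 1.28 and 1.402 CPM in 6A and 0.987 and 0.565 CPM in WT at day 0 and an interaction of -4.03 ± 0.41 (adjusted p = 0.0002). For Cubn the genotypes were close at day 0, and for Ankrd1 the 6A libraries were the higher ones then. The interaction calls of these 4 genes held in each of the 12 alternatives apart from the test against a log2 change of 1.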

How the data were processed

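The assay was RNA-seq of total RNA after removal of ribosomal RNA, with strand-preserving library chemistry and paired-end reads, per the labels' protocols. The authors deposited raw read counts per gene, 1 table per library, not normalized. The submitters' processing notes name STAR 2.7.10a, cutadapt 1.4.2 and the mm10 build. The counter, annotation and strand setting are not given in the sources. Counts given to single alleles were not used.

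From the counts of all 8 libraries, edgeR 4.0.16 (R 4.3.3) filtered low genes with filterByExpr, leaving 15458 of 24421, scaled by TMM and fitted a robust quasi-likelihood model with 1 mean for each genotype and day. The residual degrees of freedom were 4, the contrast was 6A minus WT at day 14, and p-values were adjusted over all tested genes by Benjamini-Hochberg, with calls at 0.05. CPM use TMM-adjusted library sizes. Intervals on count ratios and the 3-count floor cover counting error only. The 2 libraries of each day 14 group differed by more than sampling noise.

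The members and lists were chosen with earlier results of these data known. Named genes are Hnrnpk, the first 2 members of each list, up to 6 called members by adjusted p, all globins and Hox genes, and, outside the lists, the 15 largest rises and falls with no overlap and at least 5 CPM, and the 10 largest differences in CPM each way. Genes with a promoter motif are named besides. Some genes that meet this rule are not reported here. Alternatives were RLE scaling, DESeq2 1.42.0, no filter on low counts, the 4 day 14 libraries alone, a replicate block, a test against a log2 change of 1 and leaving out each library.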

Additional observations from a re-analysis of the deposited data

Results flagged for a closer look

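The difference between 6A and WT at day 14 was set against that at day 0 in 1 test for each gene, and 733 genes differed between the days (interaction term, edgeR's quasi-likelihood test, adjusted p under 0.05). Of these, 604 were also called at day 14. The count was 280 without WT day 14 replicate 2 and 835 without WT day 0 replicate 2. Of 82 genes called on both days, 64 had the same sign. Eya4 was called in opposite directions on the 2 days, and its values stand above. The day 0 libraries held 508 and 702 counts of 4 Y-linked genes in 6A, against 229 and 399 in WT, while the day 14 libraries held 0 or 1, and the part of this in the interaction was not tested. No group has enough libraries for a check on single outlying libraries.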

How the results depend on the processing

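Every alternative kept more falls than rises among the called genes, and none of the named genes turned its direction while called. The test against an absolute log2 change of 1 called 295 genes, 39 higher and 256 lower, and 81 genes in the interaction. Under it the falls were 6 for midbrain, hindbrain and spinal cord regulators, 10 for neuron genes, 4 each for cardiac transcription factors and smooth muscle genes, 2 for cardiac calcium handling and 1 for simple epithelium. The rises were 4 for osteoclast genes, 1 each for macrophage and visceral endoderm endocytosis genes and 0 for endothelial, blood transcription factor, pluripotency and lysosome genes. Its stricter null hypothesis lowers counts by construction. Among the called genes 39.1% were higher in 6A, against 48.3% with DESeq2 (691 higher and 740 lower) and 49.0% without the filter on low counts (1196 higher and 1244 lower). DESeq2 gave 11 rises for macrophage, 4 for osteoclast and 5 for visceral endoderm endocytosis genes and 9 falls for simple epithelium; the cause was not tested.

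Leaving out 1 library gave 982 to 2759 called genes, 296 to 1204 higher and 685 to 1557 lower, and 280 to 835 in the interaction. The falls ranged over 8 to 12 for midbrain, hindbrain and spinal cord regulators, 6 to 11 for cardiac transcription factors and for smooth muscle genes and 8 to 16 for simple epithelium. The rises ranged over 3 to 9 for endothelial genes, 3 to 8 for blood transcription factors, 7 to 19 for macrophage, 4 to 8 for osteoclast, 5 to 11 for visceral endoderm endocytosis, 4 to 11 for pluripotency and 3 to 15 for lysosome genes. A group left with 1 library is assumed to vary like the others. Of 344 called named genes, 228 kept their call in every alternative apart from the test against a log2 change of 1.

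With the replicate block 2534 genes were called, 1079 higher and 1455 lower, of which 2096 were shared with the fit without it, and 1018 in the interaction. The labels do not say that a number marks a shared culture. The deviations of same-numbered libraries correlated at 0.345 between the day 14 groups, at 0.564 between 6A day 14 and 6A day 0, at 0.0182 between WT day 14 and WT day 0, at 0.173 between the day 0 groups, at 0.167 between 6A day 14 and WT day 0 and at 0.232 between 6A day 0 and WT day 14. With 2 numbers per group and 1 of these values near 0, the numbers were not shown to pair the libraries. Depth limits what can be said of genes with 3 or fewer counts over a group. In a single day 14 library, 3 counts are 0.237 to 0.348 CPM.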
